A study of Mus musculus with 7 samples.

Results

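The cytosolic ribosomal protein genes were followed in the mouse uterus through the first day after an injection of dihydrotestosterone (DHT), an androgen that aromatase cannot turn into an estrogen. Members were all probe sets of an Affymetrix U74Av2 array that name a single gene whose symbol starts with Rpl or Rps and a digit, with Rplp0 and Rpsa, leaving out the S6 kinases. The rule found 49 of 12488 probe sets, which stand for 35 of the 8252 genes named by a probe set of a single gene: 14 of the large subunit, 16 of the small subunit, the stalk protein gene Rplp0, and 4 paralogs of subunit genes (Rpl7l1, Rpl39l, Rps4l and Rps27l). Another 39 probe sets name a ribosomal protein gene together with other genes and were left out by the rule, as were 3 for S6 kinases. Rplp1, Rplp2, Rps6, Rpl5, Rpl11 and Rps27a are therefore not among the members.

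All 7 arrays held RNA pooled from whole uteri of C57BL/6 females, given as 10 to 11 weeks old, whose ovaries had been removed 7 days before death. DHT (0.1 mg per mouse, under the skin) was given 1, 3, 6, 12, 18 or 24 h before death, and the control mice received vehicle 24 h before death, so all 7 groups lacked ovaries and all had an injection. Only the 24 h DHT pool is matched to the control in time, and at the other times DHT and the time since injection cannot be told apart. Each group is 1 array of 1 pool, with no replicates. The protocols also give that age at arrival, before weeks of acclimation, so the age at death is not settled. They mention 10 mice, and it is not stated if that is the number in each pool.

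Each ribosome carries a small subunit, which reads the mRNA, and a large subunit, which joins amino acids. Their proteins are needed in equal numbers, and in growing tissue, such as uterus under steroid hormones, ribosome supply is known to rise with protein synthesis. The mRNAs of these proteins are abundant and typically start with a C and a run of pyrimidines (C or T), the tract through which mTOR and Larp1 govern their translation. Such control can alter protein output without altering mRNA level, which is all these arrays measured.

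The windows from 30 bases before to 20 after the annotated start are shown for genes that the results below turn on, and for Rpl7a, whose pyrimidine run was the longest among the members. Sequences are from RefSeq, build GRCm38.p6, 5′ to 3′ on the gene's strand, and capitals mark the longest run of C or T where it reached 8 bases.
Rpl7a, chr2:26910777-26910826, plus strand: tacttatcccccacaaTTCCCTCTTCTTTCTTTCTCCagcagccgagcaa
Rpl13a, chr7:45128726-45128775, minus strand: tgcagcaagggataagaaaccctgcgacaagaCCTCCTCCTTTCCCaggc
Rps18, chr17:33955646-33955695, minus strand: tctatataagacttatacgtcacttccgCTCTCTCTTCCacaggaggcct
Rps27, chr3:90213629-90213678, minus strand: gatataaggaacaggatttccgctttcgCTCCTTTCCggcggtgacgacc
Rps7, chr12:28635934-28635983, minus strand: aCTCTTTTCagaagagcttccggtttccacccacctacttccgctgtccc
Rps19, the most upstream of 3 annotated starts, chr7:24884562-24884611, plus strand: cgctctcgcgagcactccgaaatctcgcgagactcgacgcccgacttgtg
Rpl7l1, chr17:46782637-46782686, minus strand: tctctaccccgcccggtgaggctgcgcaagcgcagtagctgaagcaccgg

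Promoter sequence was matched for 28 of the 35 genes, with 37 starts. A run of at least 8 pyrimidines lay in this window on the gene's strand at 14 of 37 starts (37.8%), against 20.2% of all 32851 starts in the table. On the opposite strand the same run was found at 5 of 37 (13.5%), against 21.9% of all. Over the 300 bases around each start, on either strand, CCGGAAG, the core bound by ETS factors such as Gabpa, was present at 12 starts (32.4%, against 8.86% of all). AAGATGGC, a motif of the factor Yy1, was present at 7 (18.9%, against 2.75%), and the GC box GGGCGG at 21 (56.8%, against 35.7%). The sequence TATAA was present at 9 (24.3%, against 24.9%). AGAACA, the 6-base element that androgen receptor binds in pairs, was present at 3 (8.11%, against 19.0%), and the full palindromic androgen response element, which holds AGAACA, at 0 of 37 (3 of 32851, 0.00913%). The ETS and Yy1 motifs can share the bases AAG, and the ETS motif read on the other strand can share bases with the GC box; how often they do was not counted. These matches describe letters in a window and were not tied to the signals.

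The values are MAS5 signals, scaled so that every array had the same trimmed mean, about 500.2. Any signal below 145.9, the 40th percentile over the table and here called the floor, was set to it, and log2 ratios to the vehicle array were taken. A log2 ratio of 1 is a doubling. Signals depend on each probe set's own probes, so mRNA amounts are compared only between arrays, never between genes. Across probe sets the signal serves only to describe how bright each probe set is. The maker's control ratios of 3′ to 5′ signal were between 1.03 and 1.19 for beta-actin and between 0.828 and 0.888 for Gapdh. All 7 listed smooth muscle, 7 stromal, 7 epithelial and 6 endothelial markers were above the floor on average, as were 5 of 6 leukocyte markers (Ptprc was not). In pooled tissue, fewer cells of a type and less RNA per cell cannot be told apart.

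Of the 49 probe sets, 32 (26 genes) had a mean above the floor, and these are the ones with ratios. The other 17 were under the floor on all 7 arrays, with deposited signals from 4.2 to 130.6. They include every member probe set of 9 genes: Rpl32, Rpl35a, Rpl38, Rpl39, Rps14, Rps15 and Rps20, whose proteins are standard ribosome parts, and the paralogs Rpl39l and Rps27l. A low signal from such a probe set sets only an upper bound for it. The bright and dark probe sets of a gene can lie far apart: for Rps24, a gene of the small subunit, probe set 97696_r_at ran from 22962.7 to 33768.8 and 93121_at from 61.0 to 127.4. The genes have many near-identical processed copies in the genome, so any probe set may also take up transcripts of copies, and gene-level values are uncertain to that extent.

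Ribosomal protein signals moved little. The median log2 ratio of the 32 probe sets was -0.01, 0.12, -0.11, -0.16, 0.00 and 0.21 on the 1, 3, 6, 12, 18 and 24 h arrays, while that of all 8421 probe sets above the floor was 0.00 each time. The large subunit (13 probe sets) and the small subunit (16) had like medians on the 3, 12 and 24 h arrays, namely 0.12, -0.14 and 0.19 for the large and 0.10, -0.22 and 0.18 for the small subunit. After quantile normalization the median of the 32 was -0.03 at 12 h and 0.02 at 24 h, and after cyclic loess -0.09 and 0.07. Across members the standard deviation of the 24 h ratios was 0.22 for the 21 brighter probe sets and 0.62 for the 11 dimmer ones.

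**Figure D1:**
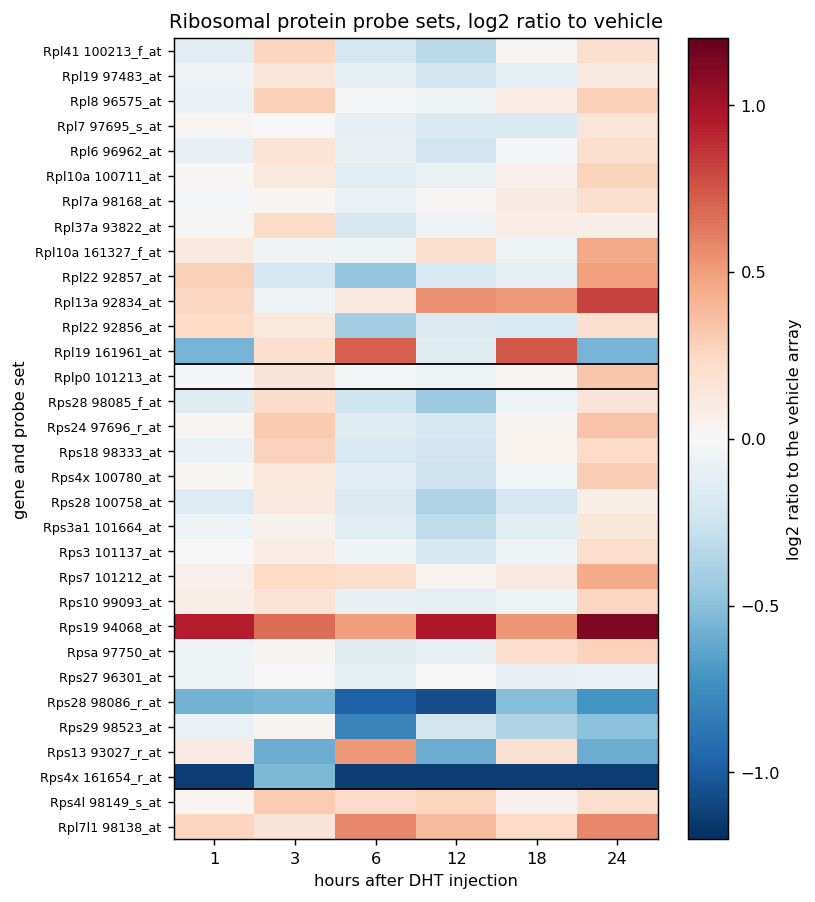
Log2 ratio to the vehicle array (colour) for the 32 ribosomal protein probe sets above the floor (rows, ordered by large subunit, stalk, small subunit and paralogs, then by brightness) at 1 to 24 h after DHT (columns), with 1 array per column. Most rows are pale, with medians between -0.16 and 0.21. Rps19 and several dimmer probe sets stand out, among them Rpl13a, Rps29, Rps13, Rpl7l1, Rps28 98086_r_at, Rps4x 161654_r_at and Rpl19 161961_at.

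A log2 ratio of at least 0.32 either way was used as the mark of a difference worth counting. In order from 1 to 24 h, 1, 1, 4, 3, 3 and 8 of the 32 members were that much higher than vehicle, against 11.4, 14.5, 17, 20.5, 15.5 and 16.4 percent of all 8421 probe sets. The numbers lower by as much were 3, 3, 5, 6, 3 and 5, against 10.5, 15.7, 18.6, 20.4, 17.3 and 16.5 percent. On the 24 h array, the only one matched in time to vehicle, the count of 8 higher became 5 of 32 after quantile normalization and after cyclic loess. The matching shares of all probe sets were not taken under those scalings, so this describes the members' count only. At 2-fold, Rps19 was higher at 24 h (0.938 percent of all probe sets). An Rps4x probe set was at least 2-fold lower on 5 arrays (0.582, 1.2, 1.39, 1.06 and 0.986 percent of all on the 1, 6, 12, 18 and 24 h arrays), and an Rps28 probe set on the 12 h array. On those 5 arrays the Rps4x probe set was under the floor. Its 5 ratios are thus the same vehicle value set against the floor and are not 5 separate observations. All 6 ratios share the vehicle array, so its own error enters each of them.

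The arrays were joined into an early phase (1, 3 and 6 h) and a late phase (12, 18 and 24 h), 3 arrays each, and tested with limma over all 8421 probe sets. With Benjamini-Hochberg adjustment at 0.05, 0 of 32 members passed in early against vehicle (all probe sets: 0 percent higher, 0.273 percent lower), late against vehicle (0 and 0.309 percent) or late against early (0 and 0 percent). At an unadjusted p under 0.05, 1 was higher (2.49 percent of all) and 1 lower (3.84 percent) in the early phase, 2 higher (5.53 percent) and 2 lower (6.19 percent) in the late phase, and 1 higher (5.76 percent) and 0 lower (4.49 percent) in late against early. The lower ones in both phases include Rps4x 161654_r_at, most of whose DHT values are the floor itself. The error in these tests is the spread between times in a phase, and it is lent to the vehicle group, which has no spread of its own. Without the 3 h array 1 member, Rps4x 161654_r_at, was called lower in both phases against vehicle, and with the floor at the 60th percentile (359.1) 1 other, Rps28 98086_r_at. In the first case all remaining DHT values, and in the second 3 of 6, had been raised to the floor, which removes their spread, so neither call is used here.

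Under the deposited scaling, the brighter members shared a small common course. The 21 probe sets (19 genes) with a mean log2 signal of at least 12, a signal of 4096, are called bright here, a class defined after the values were seen. Outside Rps19, the highest of a bright probe set's 7 signals was 1.21 to 1.58 times the lowest. On the 24 h array all 21 were above vehicle, against 67 percent of 227 other bright probe sets that name no ribosomal protein gene. On the 3, 6 and 12 h arrays 19, 2 and 4 of 21 were above vehicle, against 55.1, 48 and 50.2 percent of the others. After quantile normalization the counts for 24, 3, 6 and 12 h were 12, 9, 7 and 9 of 21, against 50.2, 46.3, 52.4 and 50.7 percent of the other bright probe sets. After cyclic loess they were 16, 16, 5 and 7, against 54.2, 46.7, 52.0 and 54.6 percent. Only values strictly above vehicle were counted. After quantile normalization the median log2 ratio of the 21 was 0 at 3 and 6 h, so some members equalled vehicle there.

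The size of this course can be read without vehicle from 2 pairs of arrays, which were chosen because the members were high and low there and so are a description only. All 21 bright members were higher at 24 h than at 12 h, with a median log2 difference of 0.40, against 70 percent and 0.13 for the other bright probe sets. All 21 were also higher at 3 h than at 6 h, with a median of 0.25, against 48.5 percent and -0.01. The highest signal was on the 24 h array for 14 and on the 3 h array for 7, and the lowest was at 12 h for 12. The matching counts for the other bright probe sets were not taken, so these describe the members only. Cyclic loess left 18 of 21 in each pair, with medians of 0.16 and 0.13. Of the other bright probe sets 48.9 and 37.9 percent were higher, with medians of 0.00 and -0.07. Quantile normalization left 11 and 12 of 21, with medians of 0.02 and 0.01 (the other bright probe sets, 0.02 and -0.05, with 52.9 and 38.8 percent higher). Whether a shared course was seen, and its size, therefore depended on how the arrays were scaled. After quantile normalization the 24 h and 12 h pair no longer set the bright members apart from the other bright probe sets.

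Control probe sets for bacterial transcripts, which mouse tissue does not make, had mean log2 ratios of -0.02, 0.57, -0.26, -0.36, 0.11 and 0.45 from 1 to 24 h (9 probe sets). They were high and low on the same arrays as the bright members, whose medians were -0.02, 0.15, -0.11, -0.17, 0.02 and 0.23. Probe sets for the B1 and B2 repeats gave -0.13, 0.20, -0.24, -0.37, -0.19 and 0.15. The part of what these controls measure in the members' course was not tested. The 35 probe sets above the floor that name a ribosomal protein gene and others, outside the rule, had medians of -0.04, 0.08, -0.15, -0.22, -0.01 and 0.17 on the same arrays.

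**Figure D2:**
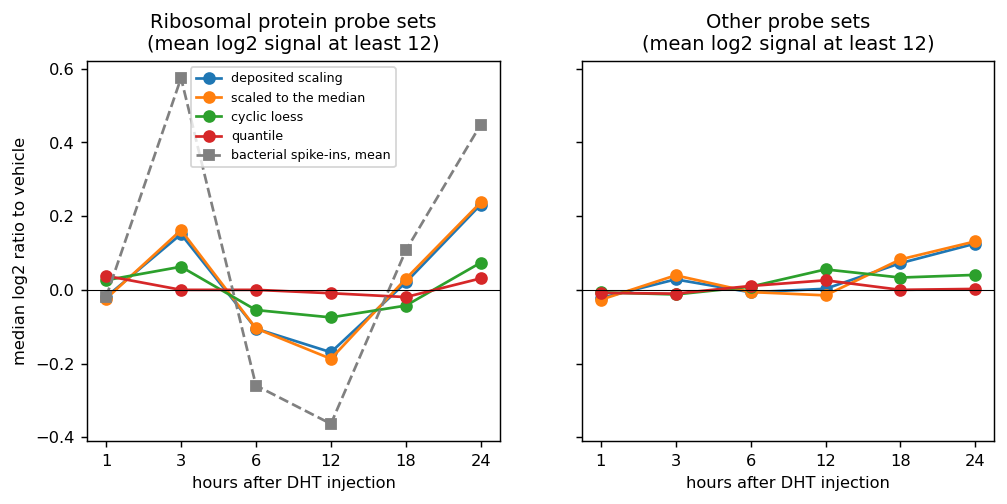
Median log2 ratio to the vehicle array (vertical axis) by hours after DHT (horizontal axis, evenly spaced) for 21 bright ribosomal protein probe sets (left) and 227 other bright probe sets (right), under the deposited scaling and 3 others; the dashed line is the mean of 9 bacterial control probe sets. The ribosomal protein medians of 0.23 at 24 h and -0.17 at 12 h shrank to 0.03 and -0.01 after quantile normalization.

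In the large subunit, the bright probe sets kept to this narrow band. Rpl7a, which binds ribosomal RNA, had the least variable bright probe set, with signals of 11329.7 on vehicle and 11177.6, 11545.9, 10730.8, 11417.6, 12138.2 and 12943.9 at 1, 3, 6, 12, 18 and 24 h. Rpl8, a protein close to the peptidyl transferase centre, had 17919.2 on vehicle and 17058.3, 21864.1, 17607.2, 17280.7, 19009.3 and 21836.3. For Rpl8 the 3 h and 24 h arrays stood above the other 5. Rpl41, which encodes the smallest ribosomal protein, had a log2 ratio of 0.26 at 3 h, -0.33 at 12 h and 0.20 at 24 h. Rpl6, Rpl7, Rpl10a, Rpl19 and Rpl37a had bright probe sets whose ratios at 24 h were between 0.07 (Rpl37a) and 0.46 (Rpl10a 161327_f_at). The brighter Rpl10a probe set, 100711_at, had 0.27 at 24 h. Both Rpl10a probe sets lay on the same side of vehicle at only 3 of 6 times.

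Rpl13a had the highest late-phase difference from vehicle in the large subunit. Its protein can also leave the ribosome and silence inflammatory mRNAs, and it is often used as a reference gene. Its signal was 939.8 on vehicle, 1113.0, 912.8 and 1022.0 on the early arrays (1, 3, 6 h), then 1378.3, 1336.2 and 1652.3 on the late ones (12, 18, 24 h). The 3 late arrays lay above all 4 others, and no other member had late arrays wholly above the early ones (1 of 32, against 8.18 percent of all probe sets; the reverse held for 0 of 32, against 6.61 percent). Late minus early was 0.52 ± 0.12 (SE, 3 arrays each; limma, unadjusted p = 0.00555, adjusted p = 0.295), and late minus vehicle was 0.62 ± 0.17 (limma, adjusted p = 0.285). The adjusted p for late against early was between 0.242 and 0.569 over the alternatives tried. The late-minus-early difference was between 0.42 and 0.59 over them, so its direction held in each, but it did not pass in any.

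Rpl22, a large subunit protein dispensable for translation and known for binding other RNAs, varied more between neighbouring times. Probe set 92857_at had 1269.6 on vehicle and 1548.1, 1098.8, 917.3, 1121.0, 1173.7 and 1781.1 from 1 to 24 h. Probe set 92856_at had 282.5 on vehicle and 332.6, 307.8, 211.3, 252.9, 248.4 and 323.1. Both were above vehicle at 1 and 24 h and lowest at 6 h, and they differed in side only at 3 h. The early and late arrays overlapped in each, and neither phase passed against vehicle in limma (adjusted p from 0.979 to 1).

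The stalk protein gene Rplp0 encodes the base of the stalk that recruits elongation factors, and it too is widely used as a reference in expression assays. Its signal was 23389.9 on vehicle and 23020.4, 25972.0, 22968.6, 22350.4, 23790.5 and 29428.3 at 1, 3, 6, 12, 18 and 24 h. The 24 h array was the highest, at a log2 ratio of 0.33, and the highest signal was 1.32 times the lowest. Late minus vehicle was 0.10 ± 0.21 (SE; limma, adjusted p = 0.900).

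In the small subunit, Rps19 had the highest phase differences from vehicle among the members. Rps19 is needed to mature the small subunit and is the gene most often mutated in Diamond-Blackfan anaemia. Its signal was 7726.5 on vehicle and 14828.2, 12322.4, 10911.1, 15070.2, 11139.1 and 16747.4 from 1 to 24 h. All 6 DHT arrays lay above vehicle, by log2 ratios of 0.94, 0.67, 0.50, 0.96, 0.53 and 1.12, and the early and late arrays overlapped. Against vehicle the early phase was 0.70 ± 0.28 higher (SE; limma, unadjusted p = 0.0466, adjusted p = 0.779) and the late phase 0.87 ± 0.28 (unadjusted p = 0.0219, adjusted p = 0.335). Over the alternatives the late difference was between 0.75 and 1.04, and its adjusted p between 0.309 and 0.556. Among the DHT arrays alone, the highest Rps19 signals were at 24, 12 and 1 h, so the 12 h array, lowest for most bright members, was not low here. Every one of these ratios rests on the single value of the vehicle array.

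Rps7, whose protein also binds Mdm2, was the other bright member with vehicle below all DHT arrays. It had 15889.6 on vehicle and 16564.7, 18805.4, 18299.0, 16237.0, 17108.9 and 21652.5 from 1 to 24 h. The nearest DHT array, at 12 h, was only 0.03 above vehicle on the log2 scale, and the late phase was 0.19 ± 0.20 (SE; limma, adjusted p = 0.754). In all, 4 of 32 members had vehicle below all DHT arrays (12.7 percent of all probe sets) and 2 had it above all (16.8 percent). Of these 2, Rps4x 161654_r_at was under the floor on 5 DHT arrays.

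**Figure D3:**
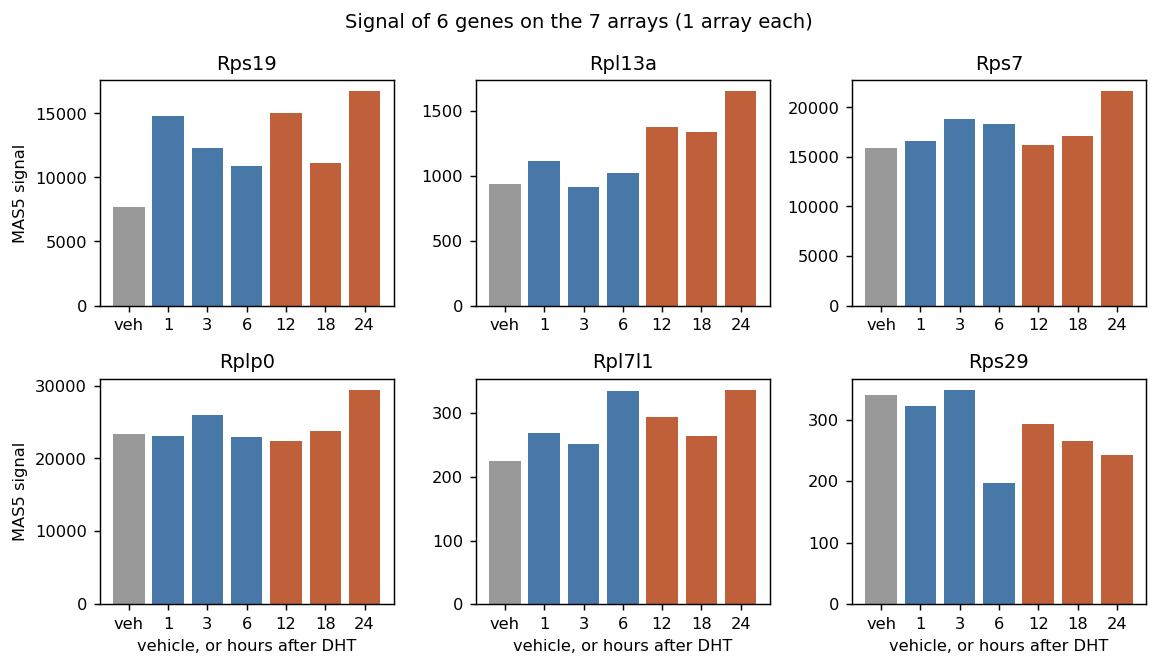
MAS5 signal (vertical axis, from 0) of 6 ribosomal protein genes on the vehicle array (grey), 3 early DHT arrays (blue) and 3 late DHT arrays (orange), 1 array per bar and so no error bars. Rps19 is lowest on vehicle at 7726.5, Rpl13a is higher on all 3 late arrays (1336.2 to 1652.3), and Rplp0 varies by 1.32-fold.

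The remaining bright small subunit genes largely followed the shared course. Rps18, a protein of the small subunit's head, had 27284.5 on vehicle and 26061.5, 33012.5, 24086.1, 23300.6, 28028.3 and 32033.3. The bright Rps24 probe set had log2 ratios of 0.32 at 3 h, -0.22 at 12 h and 0.34 at 24 h, and that of Rps4x 0.12, -0.25 and 0.30. Rps3 and Rps3a1, which lie near the path of the mRNA, and Rps10 were lowest at 12 h (log2 ratios of -0.19, -0.30 and -0.11) and highest at 24 h (0.21, 0.13 and 0.25). Rpsa, a stabiliser of the small subunit also known as a laminin receptor, had 6231.5 on vehicle and 6046.5, 6369.0, 5621.8, 5850.6, 7182.0 and 7540.0. For Rpsa the 18 and 24 h arrays were the 2 highest, and late minus early was 0.18 ± 0.12 (SE; limma, adjusted p = 0.657).

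Rps27, a zinc finger protein of the small subunit, was the flattest member, with 1218.9 on vehicle and 1177.1, 1212.7, 1131.1, 1220.2, 1143.6 and 1155.2, a range of 1.08-fold. Rps29, another small zinc protein, was less even, at 339.8 on vehicle and 322.0, 348.4, 196.4, 292.1, 265.0 and 242.2. Its log2 ratio was -0.79 at 6 h and -0.49 at 24 h, and late minus vehicle was -0.36 ± 0.34 (SE; limma, adjusted p = 0.729). Rps13 had only probe set 93027_r_at above the floor, with 3 of 7 arrays (3, 12 and 24 h) under it and signals from 69.8 to 315.2, and it had no steady course.

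Probe sets of the same gene disagreed for several members. The bright Rps28 probe sets 100758_at and 98085_f_at had log2 ratios of -0.36 and -0.44 on the 12 h array, and of 0.07 and 0.15 on the 24 h array. The dim 98086_r_at had 559.2 on vehicle and 377.7, 382.0, 284.5, 267.3, 391.4 and 340.5, below vehicle throughout (late minus vehicle -0.77 ± 0.29, SE; limma, adjusted p = 0.40). At 24 h it lay 0.87 below the highest of the Rps28 probe sets. With the floor at the 60th percentile (359.1) it was called lower in both phases, but 3 of its 6 DHT values then stood at the floor, which narrows the spread by construction.

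Rps4x, the X-linked S4 gene, had 5 member probe sets, of which 2 passed the floor on average. Probe set 161654_r_at had 319.9 on vehicle and 220.4 at 3 h, and on the other 5 arrays it was under the floor, so it was at least 2.19-fold lower there. The bright 100780_at had 21737.0 on vehicle and 21989.3, 23693.6, 19782.5, 18332.0, 21183.8 and 26705.0, a log2 gap of at least 1.43 between both probe sets at 24 h. The dim 161654_r_at passed the filter through its vehicle and 3 h values. Its late values are all the floor itself, so its p-values are not interpretable and are not given. Rpl19 161961_at, with 2 arrays under the floor and signals from 107.4 to 361.5, lay 0.86 above 97483_at at 18 h and on the same side of vehicle at only 3 of 6 times.

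**Figure D4:**
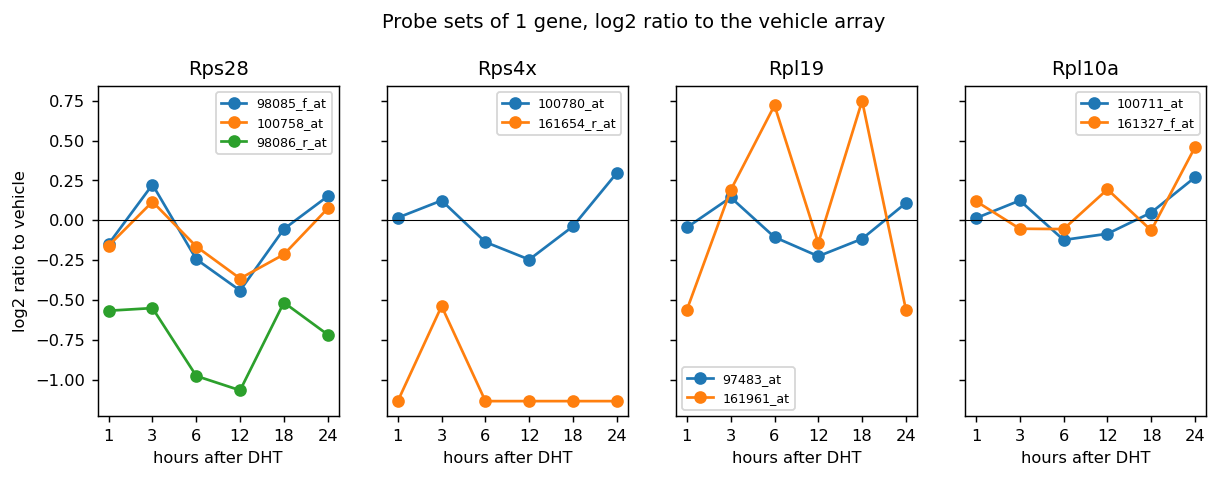
Log2 ratio to the vehicle array (vertical axis) by hours after DHT (horizontal axis, evenly spaced) for the probe sets above the floor of 4 genes, 1 array per point. Bright probe sets of Rps28 and Rps4x stay between -0.44 and 0.30, while 98086_r_at and 161654_r_at reach -1.06 and -1.13; the latter, like the lowest Rpl19 points (-0.56), is a bound set by the floor.

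Among the 4 paralogs, 2 had a probe set above the floor. Rpl7l1, a Rpl7-like protein linked to large subunit assembly, had 225.5 on vehicle and 268.9, 251.7, 335.4, 294.3, 264.2 and 337.1 from 1 to 24 h. It was above vehicle on all 6 arrays, with its highest values at 6 and 24 h (log2 ratios of 0.57 and 0.58), and late minus vehicle was 0.40 ± 0.23 (SE; limma, adjusted p = 0.548). The bright probe set of its parent Rpl7 had -0.10 at 6 h and 0.15 at 24 h. Rps4l 98149_s_at, for a close copy of Rps4x, had 520.5 on vehicle and 529.3, 643.4, 610.4, 624.1, 540.9 and 604.1, also above vehicle throughout, and its suffix marks probes that can match more than 1 transcript. Whether paralogs differ from parents was not tested.

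Other genes of ribosome production and translation were read beside the members from lists, with 1 probe set per gene. Of 38 nucleolar genes above the floor, whose products make and process ribosomal RNA, 22 were higher at 6 h and 2 lower by at least 0.32 on the log2 scale, with a median of 0.52 (17 and 18.6 percent of all probe sets), where the ribosomal protein median was -0.11. Nop56, part of the snoRNA-guided methylation complex, had 1.21 at 6 h and 0.46 at 24 h, and Ncl, the nucleolar protein nucleolin, had 0.70 and 0.64. In the early phase 0 of 38 passed limma's adjusted test, with 5 higher and 1 lower at an unadjusted p under 0.05 (2.49 and 3.84 percent of all).

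The 56 mitochondrial ribosomal protein genes, which serve the separate mitochondrial ribosome, reached a median of 0.21 on the 6 h array and of 0.32 on the 12 h array, where 27 were higher and 4 lower by at least 0.32 on the log2 scale (20.5 and 20.4 percent of all probe sets). Mrpl52 had 0.51 at 12 h and Mrps18a -0.60. In the late phase 0 of 56 passed limma's adjusted test, with 5 higher and 1 lower at an unadjusted p under 0.05 (5.53 and 6.19 percent of all). The cytosolic members had a median of -0.16 on that 12 h array. The difference between these lists was not tested.

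The 18 genes for elongation factors and other mRNAs with a pyrimidine tract had medians from -0.08 at 3 h to 0.19 at 24 h, with -0.01 at 12 h, where 9 of 18 were above vehicle. Its 3 brightest, Eef1a1, Tpt1 and Eef2, had log2 ratios of -0.37, -0.36 and -0.32 at 12 h and 0.22, 0.17 and 0.05 at 24 h, high and low on the same arrays as the bright members. Eef1a1 and Eef2 encode elongation factors and Tpt1 a growth-linked protein. Of 14 genes for signals and factors that act on ribosomal protein genes or mRNAs, Myc, a driver of ribosome production, had 0.54, 0.98 and 0.48 at 1, 3 and 6 h. Larp1, which binds the pyrimidine tract, had 0.52 at 3 h, and Mtor -0.50 at 1 h and -0.74 at 6 h. Mxi1 had -0.67 at 6 h and Rps6kb2 0.59 at 18 h. The medians of the 14 ran only from -0.12 at 12 h to 0.06 at 1 h. In both lists 0 genes passed limma's adjusted test in any contrast. At an unadjusted p under 0.05, 1 of 18 was higher in late against early (5.76 percent of all probe sets). Of the 14, 1 was higher in the early phase (2.49 percent of all). In late against vehicle 1 of 14 was lower (6.19 percent), as was 1 in late against early (4.49 percent).

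Cell type markers moved over the same hours as the members in other orders. The median log2 ratio of 7 smooth muscle markers went from -0.20 at 3 h to 0.68 at 24 h, and their summed signal from 27016.0 to 49563.5 across arrays. The 7 stromal markers had 0.66 at 12 h and 0.66 at 24 h (summed signal 43489.0 to 68529.7), and 5 cycling-cell markers 0.85, 1.33 and 0.91 at 12, 18 and 24 h (1811.1 to 4433.5). On the 12 h array, where stromal and cycling markers were high, 4 of 21 bright ribosomal protein probe sets were above vehicle. The share of the 227 other bright probe sets was 50.2 percent. Medians on that array were -0.33 for leukocyte, -0.05 for epithelial and -0.06 for endothelial markers. They were 0.17 for smooth muscle, 0.18 for adipocyte and 0.10 for blood markers. Only 3 of 5 listed adipocyte markers and 1 of 4 listed blood markers were measured and above the floor on average. The part of cell makeup in the members' values was not tested.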

How the data were processed

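RNA from 7 pools of mouse uterus, 1 array each, was measured on Affymetrix U74Av2 arrays from 20 µg of total RNA per labelling, per the labels' protocols. The deposited values are linear signal intensity that the authors computed; the submitters' processing notes name MAS5 without a version. The central 2 to 98 percent of each array averaged 500.2, so the authors' scaling was kept. The array titles were followed for the times, since the series' other text lists a different set. Of 12422 probe sets outside the 66 controls, 10833 name 1 gene, 396 several and 1193 none, by the platform's annotation.

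Signals were raised to the 40th percentile (145.9), log2 was taken, and 8421 probe sets with a mean above it were tested with limma 3.58.1 in R 4.3.3 (variance trend, 4 residual and 1.69 prior degrees of freedom, two-sided, Benjamini-Hochberg at 0.05). The number of arrays limits the precision, and p-values measure only the spread between times. On simulated data, for late against early over 8421 probe sets, 100% of 100 planted log2 changes of 1 and of 2 were called, with 7 false calls. The simulated noise had the same median spread for every probe set, whereas real probe sets differ in spread. In the real values 22 probe sets were at least 2-fold higher and 15 lower in this contrast, and 0 passed. The simulation therefore does not show that a doubling would be called here, and contrasts with the lone vehicle array were not checked in it.

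Members, gene lists and the naming rule were chosen with earlier results of these data known. The rule took the 5 highest and 5 lowest members of each phase with 1 sign at all 3 times, the 3 lowest p in each direction and contrast, the 2 highest and 2 lowest at each time, members 1.5-fold from vehicle at 2 or more times, Rplp0, Rpsa, the paralogs, members under the filter, and the 3 genes with the widest gap between probe sets. Other members were named after their values were seen. Alternatives changed the floor, filter, scaling, variance trend, probe sets per gene, fold and arrays used. Promoter windows came from RefSeq tables of GRCm38.p6.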

Additional observations from a re-analysis of the deposited data

How the results depend on the processing

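Of 272 combinations of a summary value and another setting, 190 gave the value in the same direction and within the spread between arrays of a phase or within 1.5 times the count, and so did 397 of 416 for named genes. No paired analysis was possible because the labels give no replicate numbers and each time has 1 array.

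The median over members, near 0 in each contrast, changed sign easily. A floor at the 20th percentile gave -0.024 in the early and -0.013 in the late phase, both against vehicle, and -0.013 for the 18 h array. For late minus early it was 0.0030 with the floor at the 60th percentile, 0.0011 with 1 probe set per gene, 0.0046 with plain probe set names only, and 0.0030 with bright members only, a setting added after the data were seen. After quantile normalization it was 0.029, 0.00 and -0.020 on the 1, 3 and 18 h arrays, and the 24 h median of 0.21 became 0.022, or 0.068 after cyclic loess. Cyclic loess gave -0.015 for late minus vehicle, and 0.020 and -0.051 on the 1 and 18 h arrays. On the 1 h array it was 0.0045 with 1 probe set per gene, and on the 3 h array 0.00 with no filter. Leaving out 1 array at a time, it lay between -0.061 and 0.046 in the early phase, between -0.093 and 0.103 in the late phase, and between -0.096 and 0.089 for late minus early, and the members called were 0 to 1, 0 to 1 and 0. The member called without the 3 h array was Rps4x 161654_r_at. With the floor at the 60th percentile 1 member, Rps28 98086_r_at, was called in each phase against vehicle. In both calls some or all DHT values had been raised to the floor. The part of this in the calls was not tested. At an unadjusted p under 0.05 the counts were 2, 4 and 1.

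Counts of members past the fold moved with the threshold, the floor and the choice of probe sets. Apart from the 2-fold mark, the matching shares of all probe sets were not taken for these settings. The counts therefore show only how the members' numbers moved, not whether the members differ from other probe sets. With the 1.5-fold mark, 1, 1, 3, 3, 1 and 3 members were lower on the arrays from 1 to 24 h, and 1, 1, 1 and 2 higher from 6 h on. With the 2-fold mark, 1, 0, 1, 2, 1 and 1 were lower and 0, 0, 0, 0, 0 and 1 higher. The floor at the 20th percentile gave 10, 8, 13, 12, 7 and 12 lower, and 3 and 4 higher on the first 2 arrays. The floor at the 60th percentile gave 1, 1, 2, 1 and 1 lower on the 1, 3, 6, 18 and 24 h arrays and 1 higher at 6 h. With 1 probe set per gene 0, 1, 2, 3, 1 and 2 were lower from 1 to 24 h, and with plain probe set names 1, 0, 3, 1, 1 and 2. Quantile normalization and cyclic loess each gave 2 higher on the 3 h array, and 3 lower and 5 higher on the 12 and 24 h arrays respectively. Scaling to the median gave 2 higher on the 3 h array.

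Among named genes, signs changed for probe sets near the floor or near 0. With the floor at the 20th percentile, Rps13 93027_r_at was -0.057 in the early phase. Rpl19 161961_at was then -0.031 early, -0.012 late and 0.019 for late minus early, which was 0.0032 with the floor at the 60th percentile. Leaving out 1 array in turn, the early difference ranged from -0.339 to 0.039 for Rpl22 92857_at, from -0.246 to 0.310 for Rps13 93027_r_at and from -0.185 to 0.455 for Rpl19 161961_at. For Rpl19 161961_at the late difference ranged from -0.351 to 0.303 and late minus early from -0.468 to 0.201. Late minus early ranged from -0.168 to 0.049 for Rps3a1 101664_at and from -0.207 to 0.082 for Rps28 98086_r_at. The cause of these shifts was not tested. Signal over background is the limit here: a probe set under the floor has only an upper bound, as have 17 of 49 members.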
